A study of Mus musculus with 12 samples.

Results

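The genes described here encode 8 proteins through which an antigen-presenting cell contacts a T cell: the co-stimulatory receptor Cd40, the B7-family members Cd80, Cd86, Icosl and Cd274 (PD-L1), the maturation marker Cd83, and the adhesion molecules Icam1 and Vcam1. These genes and the gene lists used below were chosen by name with earlier results of these data known. Counts of calls among them are therefore descriptions. They are 8 of 43432 genes in the tables, and 7 of the 8 were among the 12705 genes with enough counts to be tested. Vcam1 was not. Levels came from RNA-seq of BV2, an immortalised mouse microglial line, in 6 groups of 2 libraries. The groups were 6-shogaol at 10 µM with LPS, 6-shogaol at 30 µM with LPS, 6-gingerol at 10 µM with LPS, 6-gingerol at 30 µM with LPS, LPS alone, and untreated cells. LPS, a bacterial cell-wall component that activates microglia through Toll-like receptor signalling, was given at 100 ng/mL, and each compound 1 hour before it, all in serum-free medium. 6-Gingerol and 6-shogaol are pungent phenols of ginger; 6-shogaol is the dehydrated form of 6-gingerol and carries an alpha,beta-unsaturated ketone. The interval between LPS and RNA extraction, and whether the 2 libraries of a group came from separate cultures, are not given in the sources used here, so p-values measure only the spread between these libraries.

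T cell activation needs an antigen signal and a second signal from surface ligands of the presenting cell. CD80 and CD86 give that second signal through CD28 and can also engage the inhibitory receptor CTLA-4, ICOSL binds ICOS, and PD-L1 restrains T cells through PD-1. CD40 works in the reverse direction: it is a TNF-receptor family member on the presenting cell that is triggered by CD40 ligand on T cells and signals through TRAF proteins to NF-κB. In the brain, activated microglia are a main cell type that carries these proteins.

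Library totals lay between 16534960 and 21179867 expected counts. Levels are given as CPM, each count relative to its library total, after TMM scaling, a correction for differences in library composition. Changes are log2 fold changes from a fit of edgeR's quasi-likelihood test to all 12 libraries, and a gene was called at an adjusted p under 0.05 over all tested genes. Of 11 microglia and macrophage markers all were tested, and their summed level was 2504 to 2577 CPM in 6-shogaol with LPS, 2555 to 2810 CPM in 6-gingerol with LPS, 2639 to 2648 CPM in LPS and 2179 to 2242 CPM in untreated cells; P2ry12, a homeostatic microglial receptor, was under 1 CPM in every library. Of the markers of other cells, 6 of 7 for dendritic cells, 8 of 9 for T cells, 5 of 5 for B cells, 4 of 6 for endothelium and 7 of 9 for astrocytes, neurons and oligodendrocytes were under 1 CPM in every library. Cd3e, Cd8a and Cd40lg had no count in any library. Cd28, named here after its values were seen, was the exception in the T cell list, at 87.0 to 111 CPM in 6-shogaol with LPS, 97.6 to 117 CPM in 6-gingerol with LPS, 93.1 and 99.2 CPM in LPS and 164 and 153 CPM in untreated cells. The endothelial exceptions, also named after their values were seen, were Kdr at 124 to 164 CPM and Vwf at 9.01 to 17.5 CPM over the 12 libraries; the part of these genes in the results below was not tested. Because these are bulk libraries, fewer cells carrying a transcript and less transcript per cell cannot be told apart.

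The 8 genes differed widely in abundance. In TPM, a share of all transcripts that is corrected for transcript length, the median level over the 12 libraries was 57.0 for Cd86, 38.1 for Cd274, 35.6 for Cd40 and 20.7 for Icam1. Cd83, Icosl and Cd80 were lower, with median levels of 5.6, 5.22 and 4.10 TPM. Cd86 therefore exceeded its closest relative Cd80 in all 12 libraries, with a TPM ratio between 11.7 and 16.8. Vcam1, the ligand of the alpha4 beta1 integrin on leukocytes, was at the edge of detection: it had 1 and 0 counts in 6-shogaol at 10 µM, 0 and 0 at 30 µM, 4 and 3 in 6-gingerol at 10 µM, 2 and 4 at 30 µM, 1 and 10 in LPS and 1 and 0 in untreated cells. The floor of 3 counts a library was 0.142 to 0.181 CPM before TMM scaling, and only LPS replicate 2 and 1 library at each 6-gingerol dose had more than 3 counts. Vcam1 did not pass the count filter and its group differences were not tested.

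On the GRCm38 genome with GENCODE M21 annotation, Cd40 (ENSMUSG00000017652) lies on chromosome 2 from 165055627 to 165072948, Cd86 (ENSMUSG00000022901) on chromosome 16 from 36603869 to 36666081, and Cd80 (ENSMUSG00000075122) on the same chromosome from 38455561 to 38496335. Cd83 (ENSMUSG00000015396) lies on chromosome 13 from 43784775 to 43803132, Cd274 (ENSMUSG00000016496) on chromosome 19 from 29367455 to 29388095, and Icosl (ENSMUSG00000000732) on chromosome 10 from 78069302 to 78083913. Icam1 (ENSMUSG00000037405) lies on chromosome 9 from 21015985 to 21028817, and Vcam1 (ENSMUSG00000027962) on chromosome 3 from 116109949 to 116129688. Cd274, Icam1 and Vcam1 each overlap an annotated antisense gene. The library kit was stranded, but the strand setting of the counting is not given in the sources used here, so reads of these 3 genes could include antisense reads.

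Promoters are shown for 3 genes that LPS raised and that then took different courses under 30 µM 6-shogaol: Cd274, which fell, and Icam1 and Icosl, which were not called against LPS. Each sequence is the 250 bases upstream of the RefSeq start on GRCm38.p6, plus strand, at chr19:29367188-29367437 for Cd274, chr9:21015690-21015939 for Icam1 and chr10:78069118-78069367 for Icosl. Capitals mark a match to 1 of 4 motifs searched on both strands: the kappa B consensus bound by NF-κB, AP-1 (TGANTCA), the interferon-stimulated response element and the gamma-activated site bound by STAT proteins (TTCNNNGAA).
Cd274: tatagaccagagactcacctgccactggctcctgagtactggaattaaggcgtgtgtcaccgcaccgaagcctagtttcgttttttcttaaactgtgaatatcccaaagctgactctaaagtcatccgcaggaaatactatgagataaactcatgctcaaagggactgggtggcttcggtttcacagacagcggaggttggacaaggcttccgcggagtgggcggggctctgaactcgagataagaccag
Icam1: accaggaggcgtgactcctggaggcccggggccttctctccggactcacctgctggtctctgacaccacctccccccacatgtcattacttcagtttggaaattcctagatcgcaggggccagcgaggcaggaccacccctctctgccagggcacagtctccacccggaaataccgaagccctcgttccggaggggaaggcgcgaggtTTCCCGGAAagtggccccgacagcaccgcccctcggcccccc
Icosl: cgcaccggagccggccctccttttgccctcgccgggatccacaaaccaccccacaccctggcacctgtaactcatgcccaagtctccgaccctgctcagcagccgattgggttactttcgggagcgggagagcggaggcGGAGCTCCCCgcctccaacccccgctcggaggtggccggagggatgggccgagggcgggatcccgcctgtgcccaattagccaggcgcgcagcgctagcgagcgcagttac
The Icam1 stretch held 1 gamma-activated site, the Icosl stretch held 1 kappa B match on the minus strand, and the Cd274 stretch held none of the 4 motifs. Cd80, whose RefSeq promoter at chr16:38458683-38458932 on the plus strand was also searched, held 1 AP-1 match; no matches overlapped. Among 32851 promoters in the table, 7.3% held the kappa B consensus, 6.7% AP-1, 3.0% the interferon element and 7.0% the gamma-activated site in the same 250 bases. A match describes the letters only. Variants of these motifs, including sites that differ from the kappa B consensus, were not searched for. A stretch without a match may therefore still hold such a site. Cd40, Cd86, Cd83 and Vcam1 had no promoter in the table.

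LPS alone raised 4 of the 7 tested genes and lowered 1. Cd40, Cd274, Icosl and Icam1 rose and Cd83 fell, while the B7 pair Cd80 and Cd86 was not called. Across all tested genes 11.8% were called in this comparison (7.66% higher and 4.16% lower).

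Cd40, the receptor for T cell help, had 40.0 and 40.0 CPM in LPS libraries, against 22.3 and 17.7 CPM in untreated libraries. Cd274, the checkpoint ligand, had 147 and 152 CPM in LPS libraries, against 74.7 and 61.8 CPM in untreated libraries. Both LPS libraries lay above both untreated libraries for each gene. Cd40 rose by 1.00 log2 units (SE 0.12, adjusted p = 3.16e-05) and Cd274 by 1.13 (SE 0.12, adjusted p = 6.2e-06), a 2.01-fold and a 2.19-fold difference.

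Icosl, the ICOS ligand, had 10.96 and 13.6 CPM with LPS, against 4.67 and 6.00 CPM without treatment. Icam1, the ligand of the beta2 integrins LFA-1 and Mac-1, had 47.6 and 49.3 CPM with LPS, against 32.2 and 29.2 CPM without treatment. Again neither gene's groups overlapped. The log2 fold change was 1.20 (SE 0.17, adjusted p = 0.00012) for Icosl and 0.66 (SE 0.10, adjusted p = 0.000324) for Icam1.

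Cd83, a surface protein of mature dendritic cells that in mice is known to keep CD86 and MHC class II at the surface by opposing the ubiquitin ligase MARCH1, went the other way. It had 8.96 and 8.76 CPM in LPS libraries, against 18.0 and 14.2 CPM in untreated libraries, with both LPS libraries below both untreated ones. The change was a fall of 1.82-fold (log2 fold change -0.86, SE 0.16, adjusted p = 0.00151). Cd86 had 128 and 128 CPM in LPS, against 168 and 124 CPM in untreated cells, so the LPS values lay inside the wide untreated range. Cd86 had a log2 fold change of -0.20 (95% interval -0.49 to 0.09, adjusted p = 0.423). Cd80 had 6.05 and 7.33 CPM in LPS, against 7.80 and 5.44 CPM in untreated cells, and a log2 fold change of 0.03 (95% interval -0.49 to 0.54, adjusted p = 0.962).

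**Figure D1:**
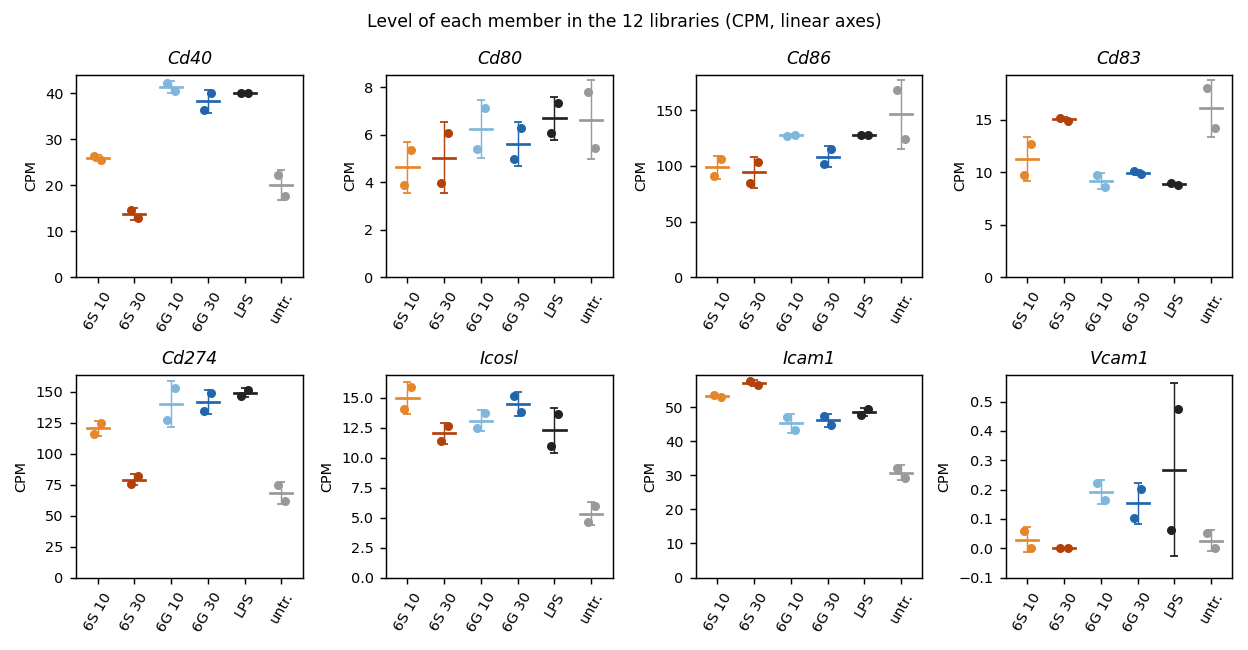
Level of each of the 8 genes in the 12 libraries, in CPM on linear axes with a separate scale per gene; points are libraries, horizontal lines group means and bars 1 SD (n = 2); 6S is 6-shogaol with LPS and 6G is 6-gingerol with LPS, in µM. Cd40 and Cd274 were lowest among the LPS-treated groups at 30 µM 6-shogaol, Cd83 was highest there, and Icam1 stayed above its untreated libraries in all 5 LPS-treated groups.

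At 30 µM, 6-shogaol given with LPS moved 4 of the 7 tested genes relative to LPS alone: Cd40, Cd274 and Cd86 fell and Cd83 rose. Icam1, Icosl and Cd80 were not called. This comparison called 25.4% of all tested genes (12.6% higher and 12.8% lower), and 4 of 7 is to be read beside that share. At 10 µM only Cd40 was called, as a fall, where 0.638% of all tested genes were called (0.063% higher and 0.575% lower). Both comparisons use the same 2 LPS libraries, as do those of 6-gingerol below and that of LPS with untreated cells.

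Cd40 had 26.4 and 25.5 CPM with 10 µM 6-shogaol and 14.6 and 12.8 CPM with 30 µM, against 40.0 and 40.0 CPM in LPS. All 4 6-shogaol libraries lay below both LPS libraries, and the 30 µM libraries lay below the 10 µM ones. The log2 fold change was -1.55 at 30 µM (SE 0.13, adjusted p = 7.16e-07, a 2.92-fold fall) and -0.63 at 10 µM (SE 0.12, adjusted p = 0.0204). The 10 µM call was lost when any 1 of the 4 compared libraries was left out (adjusted p 0.177 to 0.325), with log2 fold changes still between -0.65 and -0.60.

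Cd274 had 116.0 and 125 CPM with 10 µM 6-shogaol and 75.7 and 81.9 CPM with 30 µM, against 147 and 152 CPM in LPS. Neither dose overlapped with LPS. At 30 µM it fell 1.89-fold (log2 fold change -0.92, SE 0.12, adjusted p = 4.4e-05). At 10 µM the log2 fold change was -0.31 (95% interval -0.55 to -0.07, adjusted p = 0.34) and was not called.

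Cd83 had 9.79 and 12.7 CPM with 10 µM 6-shogaol and 15.2 and 14.9 CPM with 30 µM, against 8.96 and 8.76 CPM in LPS. The 30 µM libraries lay above every other LPS-treated library. Cd83 rose 1.70-fold at 30 µM (log2 fold change 0.77, SE 0.16, adjusted p = 0.00244), and at 10 µM its log2 fold change of 0.35 was not called (95% interval 0.01 to 0.69, adjusted p = 0.445).

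Among the CD28 ligands, Cd86 had 91.2 and 106 CPM with 10 µM 6-shogaol and 84.4 and 104 CPM with 30 µM, against 128 and 128 CPM in LPS, so all 4 lay below LPS. It fell 1.36-fold at 30 µM (log2 fold change -0.44, SE 0.14, adjusted p = 0.0291). That call did not hold without LPS replicate 1 (adjusted p = 0.115), without LPS replicate 2 (0.116) or without 30 µM 6-shogaol replicate 1 (0.239). Cd80 had 3.87 and 5.37 CPM with 10 µM 6-shogaol and 3.97 and 6.09 CPM with 30 µM, against 6.05 and 7.33 CPM in LPS. The 10 µM libraries lay below the LPS range and the 30 µM libraries overlapped with it, and the Cd80 log2 fold change of -0.41 at 30 µM had a 95% interval of -0.95 to 0.12 (adjusted p = 0.256).

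The adhesion ligand Icam1 did not share the falls of Cd40 and Cd274. It had 53.5 and 53.1 CPM at 10 µM and 57.7 and 56.3 CPM at 30 µM, against 47.6 and 49.3 CPM in LPS, so all 4 libraries lay above both LPS libraries. Its log2 fold change at 30 µM was 0.23 (95% interval 0.02 to 0.44, adjusted p = 0.0985), an interval above 0, but it did not pass the test across all genes. Icosl had 14.0 and 15.9 CPM at 10 µM and 11.4 and 12.6 CPM at 30 µM, against 10.96 and 13.6 CPM in LPS. At 30 µM its log2 fold change was -0.04 (95% interval -0.37 to 0.29, adjusted p = 0.894).

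6-Gingerol gave no call among the 7 genes at either dose, and 0% of all tested genes were called by edgeR at 10 µM and 0% at 30 µM. No member reached an unadjusted p under 0.05 at either dose, and DESeq2 and limma-voom also called 0 members. Cd40 had 42.2 and 40.4 CPM with 10 µM 6-gingerol and 36.4 and 40.0 CPM with 30 µM, against 40.0 and 40.0 CPM in LPS, all within 4 CPM of the LPS level. At 30 µM the log2 fold change of Cd40 was -0.07 (95% interval -0.32 to 0.18, adjusted p = 1), and the widest departure was that of Cd80, at -0.26 (95% interval -0.78 to 0.27). Cd86 had 101 and 115 CPM with 30 µM 6-gingerol, below both LPS libraries, with a log2 fold change of -0.24 (95% interval -0.53 to 0.05).

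**Figure D2:**
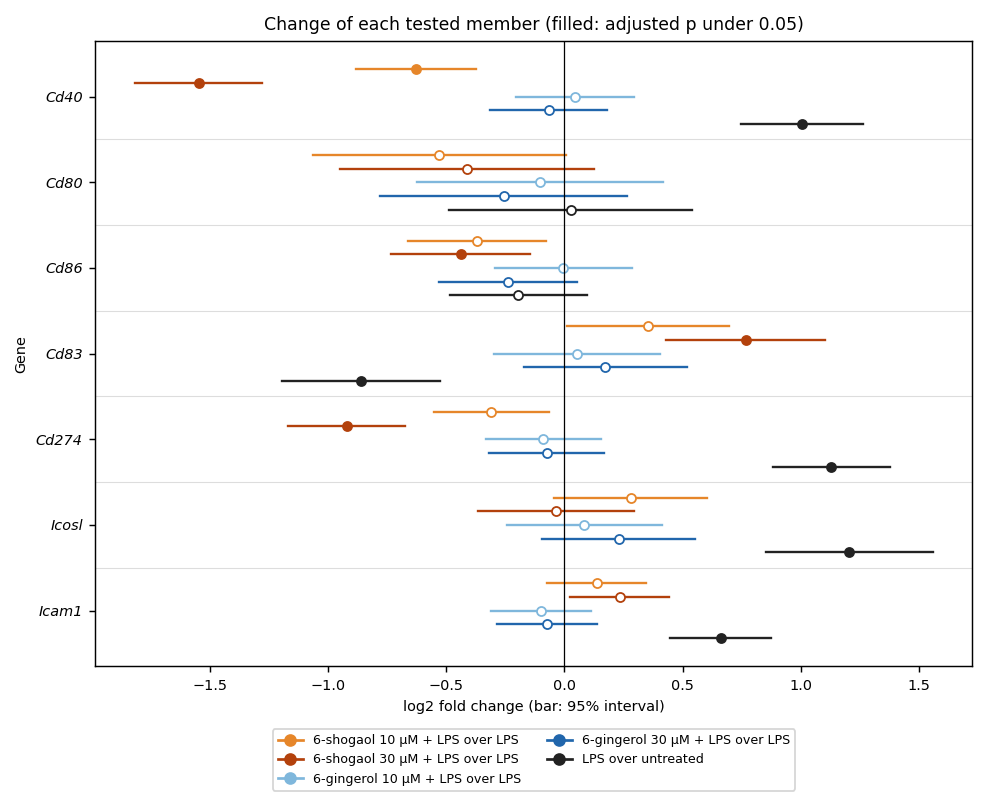
Log2 fold change of the 7 tested genes for each compound and dose with LPS over LPS alone and for LPS over untreated cells, with 95% intervals (edgeR); filled points had an adjusted p under 0.05. Cd40 and Cd274 rose with LPS and fell with 30 µM 6-shogaol, Cd83 shows the opposite signs, and every 6-gingerol interval crosses 0.

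The 2 compounds were compared directly at their 2 matched doses. At 30 µM, 4 of the 7 genes differed, where 25% of all tested genes were called (12.5% higher and 12.4% lower); at 10 µM, 1 did, where 0.638% were called (0.0787% higher and 0.559% lower). Cd40 was lower with 6-shogaol at both doses: 14.6 and 12.8 CPM with 6-shogaol and 36.4 and 40.0 CPM with 6-gingerol at 30 µM, a log2 difference of -1.48 (SE 0.13, adjusted p = 1.17e-06). At 10 µM the difference was -0.67 (SE 0.12, adjusted p = 0.0146); it lost its call when any 1 of the 4 libraries was left out (adjusted p 0.0655 to 0.294).

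Cd274 at 30 µM had 75.7 and 81.9 CPM with 6-shogaol and 135 and 149 CPM with 6-gingerol, a log2 difference of -0.85 (SE 0.12, adjusted p = 0.000102). Cd83 had 15.2 and 14.9 CPM with 6-shogaol and 10.1 and 9.82 CPM with 6-gingerol, a log2 difference of 0.59 (SE 0.16, adjusted p = 0.0119). Neither gene's groups overlapped, although without 1 of the 4 compared libraries the adjusted p for Cd83 was 0.05 to 0.0668. Icam1 had 57.7 and 56.3 CPM with 6-shogaol and 47.4 and 44.7 CPM with 6-gingerol, a log2 difference of 0.31 (95% interval 0.10 to 0.52, adjusted p = 0.0333), and its call held in 10 of 21 alternative analyses.

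Cd86, Icosl and Cd80 were not called at 30 µM. The difference of 6-shogaol from 6-gingerol was -0.20 log2 units for Cd86 (95% interval -0.50 to 0.09), -0.27 for Icosl (-0.59 to 0.06) and -0.16 for Cd80 (-0.70 to 0.39). These intervals leave room for differences of about the size called for Icam1.

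Between the doses of 6-shogaol, Cd40 and Cd274 were lower at 30 µM than at 10 µM, by -0.92 log2 units (SE 0.13, adjusted p = 0.000168) and -0.61 (SE 0.12, adjusted p = 0.00203), where 19.4% of all tested genes were called (9.85% higher and 9.54% lower). Cd83 had a log2 difference of 0.41 between these doses (adjusted p = 0.0745). Between the doses of 6-gingerol none of the 7 genes was called by edgeR, DESeq2 or limma-voom, none had an unadjusted p under 0.05, and 0.00787% of all tested genes were called. The step from 10 to 30 µM was itself more negative for 6-shogaol than for 6-gingerol for 2 genes, where 8.17% of all genes were called (4.27% higher and 3.9% lower): the difference of the steps was -0.81 log2 units for Cd40 (SE 0.17, adjusted p = 0.0116) and -0.62 for Cd274 (SE 0.16, adjusted p = 0.0287).

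**Figure D3:**
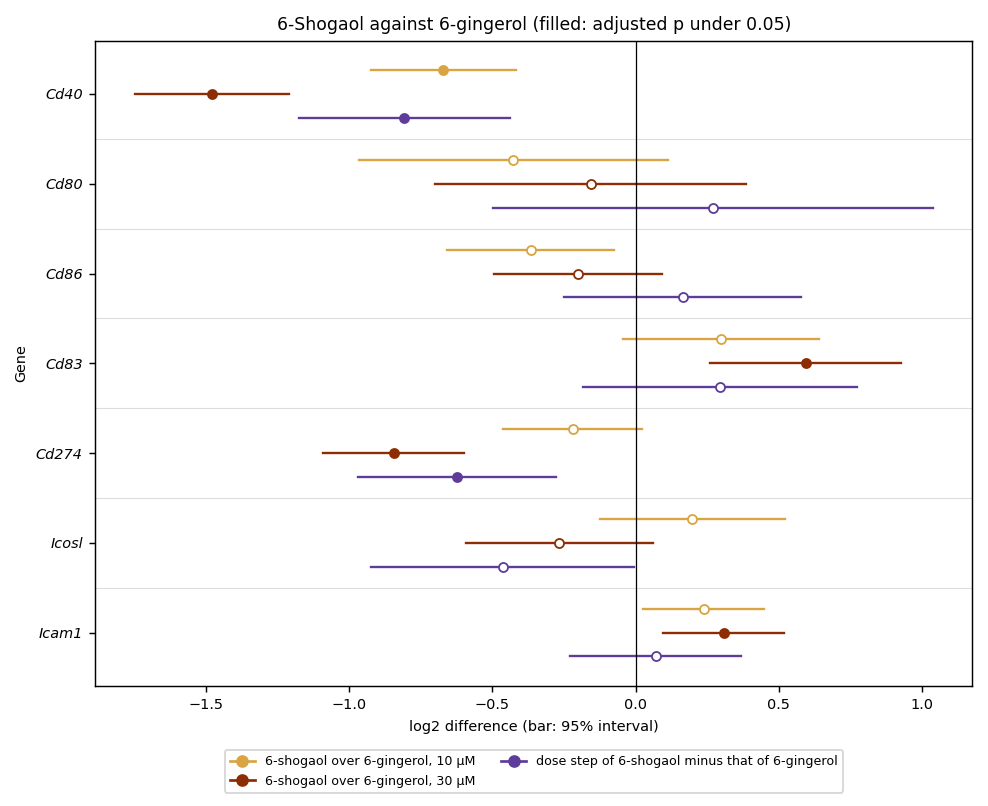
Log2 difference of 6-shogaol from 6-gingerol at 10 and 30 µM, and the difference between their 10-to-30 µM steps, for the 7 tested genes, with 95% intervals (edgeR); filled points had an adjusted p under 0.05. Cd40 is called in all 3 comparisons and lies left of 0, Cd274 is called at 30 µM and for the step, and Icam1 and Cd83 are called to the right of 0 at 30 µM.

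Set against untreated cells, the genes under 30 µM 6-shogaol with LPS separated into 3 kinds by their calls. Icosl and Icam1 were still raised: Icosl had 11.4 and 12.6 CPM, against 4.67 and 6.00 CPM in untreated cells (log2 fold change 1.17, SE 0.17, adjusted p = 0.000136), and Icam1 had 57.7 and 56.3 CPM, against 32.2 and 29.2 CPM (0.89, SE 0.10, adjusted p = 1.59e-05). Cd40 and Cd86 were below untreated: Cd40 had 14.6 and 12.8 CPM, against 22.3 and 17.7 CPM in untreated cells (-0.54, SE 0.13, adjusted p = 0.00635), and Cd86 had 84.4 and 104 CPM, against 168 and 124 CPM (-0.63, SE 0.14, adjusted p = 0.00342). The untreated and treated ranges did not overlap for any of these 4 genes, and 25.4% of all tested genes were called in this comparison (13.3% higher and 12.1% lower). In the normalized table that the authors deposited, Cd40 had a log2 fold change of -0.40 and was not called (limma-trend, adjusted p = 0.0738). Without untreated replicate 1 the adjusted p for Cd40 was 0.0674, without 30 µM 6-shogaol replicate 2 it was 0.0872, and without 30 µM 6-shogaol replicate 1 that for Cd86 was 0.0521.

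Cd80, Cd83 and Cd274 were not called against untreated cells at 30 µM. Cd80 had 3.97 and 6.09 CPM, against 7.80 and 5.44 CPM in untreated cells. Its log2 fold change was -0.39 (95% interval -0.92 to 0.15). Cd83 had 15.2 and 14.9 CPM, inside the untreated range of 14.2 to 18.0 CPM, with a log2 fold change of -0.09 (95% interval -0.41 to 0.23). Cd274 had 75.7 and 81.9 CPM, just above the untreated 74.7 and 61.8 CPM, with a log2 fold change of 0.21 (95% interval -0.04 to 0.46); without untreated replicate 1 this became 0.35 and was called (adjusted p = 0.049).

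At 10 µM 6-shogaol with LPS, 4 genes were called against untreated cells, where 8.76% of all tested genes were (5.88% higher and 2.88% lower). Icosl, Cd274 and Icam1 were higher, by 1.48 (SE 0.16), 0.82 (SE 0.12) and 0.80 (SE 0.10) log2 units (adjusted p 1.96e-05, 0.000234 and 8.06e-05). Cd86 was lower, by -0.57 log2 units (SE 0.14, adjusted p = 0.0169). That call was lost without untreated replicate 1 (log2 fold change -0.33), without 10 µM 6-shogaol replicate 1 (-0.44) or without its replicate 2 (-0.65). It was also lost in an edgeR fit to the compared groups only (-0.56, adjusted p = 0.075). Cd40 and Cd83 lay between their LPS and untreated levels, with log2 fold changes over untreated of 0.38 (adjusted p = 0.0686) and -0.51 (adjusted p = 0.051).

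The choice of these genes named Cd83 as moving against Cd40, so their relation is a description. Their calls had opposite signs with LPS over untreated cells, with 30 µM 6-shogaol over LPS and with 6-shogaol over 6-gingerol at 30 µM, and so did those of Cd83 and Cd274. Against untreated cells, in contrast, the mean levels with 30 µM 6-shogaol were lower for both genes, with Cd40 called and Cd83 not. The TPM ratio of Cd40 to Cd83 was 5.37 and 4.13 with 6-shogaol at 10 µM, 2.33 and 1.78 with it at 30 µM, 8.79 and 9.77 with 6-gingerol at 10 µM, 7.14 and 8.70 with it at 30 µM, 9.55 and 9.63 with LPS, and 2.48 and 2.63 in untreated cells. The LPS and 6-gingerol libraries formed the high end and overlapped in part, the untreated and 30 µM 6-shogaol libraries formed the low end, and the 10 µM 6-shogaol libraries lay between. The transcript length that enters the Cd40 TPM was between 1022 and 1201 bases, shortest in 30 µM 6-shogaol replicate 1. The 12 libraries share only 6 treatments, so no test of this relation is given.

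**Figure D4:**
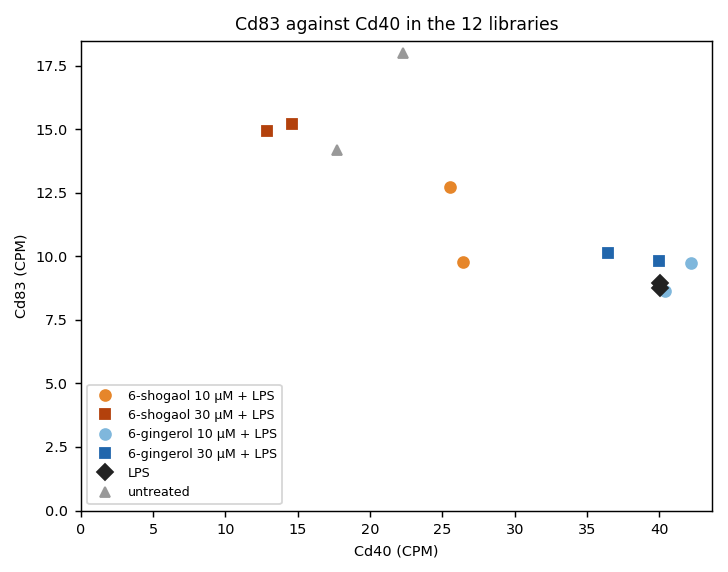
Cd83 against Cd40 in the 12 libraries, in CPM on linear axes; each point is a library and its marker the group. LPS and 6-gingerol libraries sit at high Cd40 (36.4 to 42.2 CPM) and low Cd83 (8.65 to 10.1 CPM), and 30 µM 6-shogaol libraries at low Cd40 (12.8 and 14.6 CPM) and high Cd83 (14.9 and 15.2 CPM).

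The genes around these 8 proteins were read as 5 lists by role. The list names give known roles of the genes, and whether CD40 itself was engaged was not tested. Of 16 genes of CD40 signalling, all tested, LPS raised 7 and lowered none, where 7.66% of all tested genes were higher and 4.16% lower, and the median log2 fold change was 0.46 beside -0.03 for all genes. Traf1, an adaptor and NF-κB target, rose the most of the list, with 40.6 and 40.1 CPM in LPS, against 1.23 and 0.98 CPM in untreated cells (log2 fold change 5.19, adjusted p = 2.2e-11). Nfkbia, which encodes an NF-κB inhibitor, rose by 1.61 log2 units. Birc3, which encodes a TRAF-binding ubiquitin ligase, had 97.6 and 97.2 CPM in LPS, against 37.9 and 33.9 CPM in untreated cells, and Tnfaip3, a ubiquitin-editing inhibitor of NF-κB, had 80.9 and 87.6 CPM, against 32.2 and 36.1 CPM; both were called higher.

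With 30 µM 6-shogaol, 9 of the 16 CD40-signalling genes fell against LPS and none rose, where 12.8% of all tested genes were lower and 12.6% higher (median -0.35, beside 0.00 for all genes). Traf1 had 17.2 and 16.4 CPM with 10 µM 6-shogaol and 2.99 and 2.71 CPM with 30 µM, against 40.6 and 40.1 CPM in LPS. Its log2 fold change was -3.82 at 30 µM (adjusted p = 6.89e-10) and -1.27 at 10 µM (adjusted p = 9.2e-05). The latter was the single call of the list at 10 µM, where 0.638% of all tested genes were called. Birc3 (-1.04), the survival gene Bcl2l1 (-0.98) and Nfkb2, the precursor subunit of the non-canonical pathway (-0.88), fell at 30 µM as well. Nfkbia had 139 and 126 CPM with 30 µM 6-shogaol, against 148 and 144 CPM in LPS, and was not called (adjusted p = 0.32).

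Of 25 other adhesion molecules and integrin subunits 19 were tested. LPS raised 5 and lowered 2, where 11.8% of all tested genes were called (median 0.09, beside -0.03 for all genes). Against LPS, 30 µM 6-shogaol lowered 7 and raised 2, where 25.4% of all tested genes were called (median -0.29, beside 0.00). At 10 µM no gene of the list was called, where 0.638% of all tested genes were. The largest fitted changes were of scarce transcripts. Madcam1, a mucosal addressin, had 3 and 0 counts with 30 µM 6-shogaol, against 22 and 34 in LPS and 4 and 0 in untreated cells, and was called in both comparisons. Pecam1 was called in the same directions at no more than 0.71 CPM, and Itgax, the integrin alphaX subunit, had 1.53 and 0.90 CPM with 30 µM 6-shogaol, against 0.48 and 0.43 CPM in LPS and 1.64 and 1.303 CPM in untreated cells. Itgax fell with LPS over untreated cells (log2 fold change -1.68, adjusted p = 0.0111) and rose with 30 µM 6-shogaol over LPS (1.40, adjusted p = 0.0237); Cd9, a tetraspanin gene, was the other gene of the list that LPS lowered (-0.38). Itga4, the alpha4 subunit of the VCAM-1 receptor, was abundant and had 114 and 126 CPM with 30 µM 6-shogaol, against 215 and 229 CPM in LPS, a log2 fold change of -0.89 (adjusted p = 0.000124). The hyaluronan receptor Cd44 rose with LPS by 0.51 log2 units (adjusted p = 0.00203).

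The subunits of the ICAM-1 receptors, named as its known partners, did not pass the test in these 2 comparisons. Itgal had a log2 fold change of -0.09 with 30 µM 6-shogaol over LPS (adjusted p = 0.573), Itgb2 one of 0.10 (adjusted p = 0.43) and Itgam one of -0.25 (adjusted p = 0.0542). With LPS over untreated cells the values were -0.27 for Itgal (adjusted p = 0.117), 0.05 for Itgb2 (0.785) and -0.02 for Itgam (0.932).

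Of 21 other B7 and TNF-superfamily co-signalling genes 13 were tested. LPS raised 3, namely Lgals9 (0.99), the 4-1BB ligand Tnfsf9 (0.77) and the B7 relative Cd276 (0.68), and lowered 2, of which Tnfsf14 (-0.84) had the larger change, where 11.8% of all tested genes were called. Against LPS, 30 µM 6-shogaol lowered Tnfsf9 (log2 fold change -0.94) and Lgals9 (-0.40) and raised none; 2 of 13 is no larger a share than the 25.4% of all tested genes called in this comparison. Lgals9, which encodes galectin-9, a ligand of TIM-3, had 57.3 and 56.4 CPM with 10 µM 6-shogaol and 67.7 and 62.3 CPM with 30 µM, against 84.2 and 87.0 CPM in LPS. It was called at both doses, with -0.59 at 10 µM (adjusted p = 0.0273) and -0.40 at 30 µM (adjusted p = 0.0206). At 10 µM 0.638% of all tested genes were called. The median over the 13 genes was -0.05 with LPS, -0.01 with 10 µM 6-shogaol and -0.11 with 30 µM.

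Of 12 genes of MHC class II presentation 8 were tested. With LPS none of them was called, where 11.8% of all tested genes were called (median 0.01, beside -0.03 for all genes). The class II chain genes H2-Aa, H2-Ab1 and H2-Eb1 and their regulator Ciita had at most 4 counts in any library. With 30 µM 6-shogaol 3 of the 8 fell against LPS and none rose, where 12.8% of all tested genes were lower and 12.6% higher (median -0.25, beside 0.00): Cd74, the invariant chain, had 58.7 and 61.1 CPM, against 95.9 and 126 CPM in LPS (log2 fold change -0.89, adjusted p = 6.27e-05), H2-Oa fell by 0.59 log2 units and the protease gene Ctss by 0.56. Of 6 genes that control surface turnover 5 were tested. LPS raised 1 of them and lowered none, where 7.66% of all tested genes were higher and 4.16% lower (median 0.13, beside -0.03). Against LPS, 30 µM 6-shogaol lowered 2 and raised 1, where 25.4% of all tested genes were called (median -0.19, beside 0.00). Adam17, a sheddase, had 318 and 321 CPM with 30 µM 6-shogaol, against 467 and 459 CPM in LPS and 284 and 280 CPM in untreated cells. It rose with LPS (0.71, adjusted p = 8.24e-05) and fell with 30 µM 6-shogaol (-0.53, adjusted p = 0.000747). Adam10, the related sheddase, rose with 30 µM 6-shogaol by 0.36 and the ubiquitin ligase gene March8 fell by 0.30 log2 units. March1, the ligase that CD83 opposes, did not reach 0.4 CPM in any library and was not tested. None of the genes in the 5 lists was called in either comparison of 6-gingerol with LPS, where 0% of all tested genes were called.

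**Figure D5:**
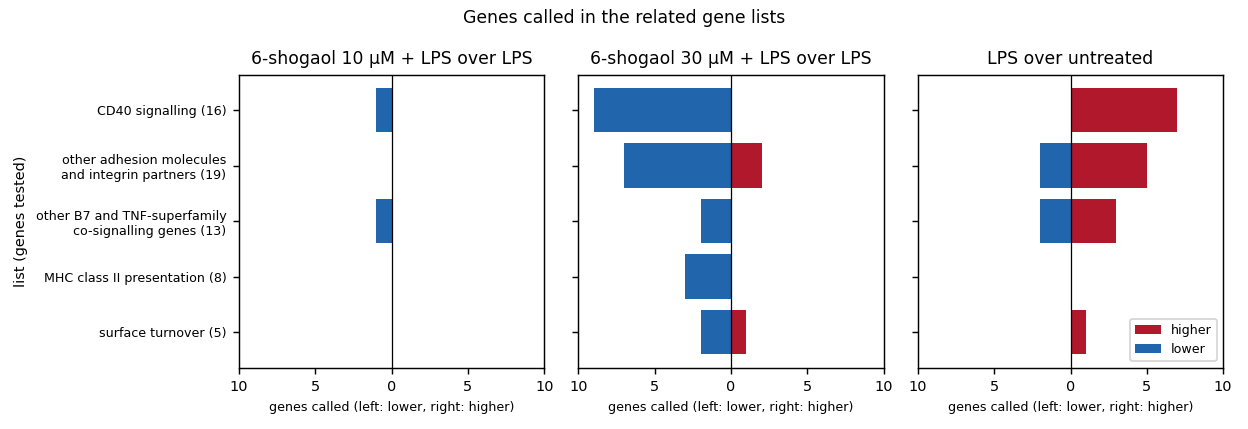
Number of genes called lower (left of 0) and higher (right of 0) by edgeR at an adjusted p under 0.05 in the 5 lists, for 6-shogaol at 10 and 30 µM with LPS over LPS and for LPS over untreated cells; the number tested is in brackets. The CD40 signalling list shows 7 higher with LPS, where 7.66% of all tested genes were higher. It shows 9 lower with 30 µM 6-shogaol, where 12.8% of all tested genes were lower.

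The genes whose log2 CPM most resembled each member were ranked among 9933 genes with a mean of at least 5 CPM, by Pearson's r over the 12 libraries; these libraries share 6 treatments, so r mainly describes group means and carries no test. For Cd40 they were Mdm2 (0.983), Il6 (0.982) and Ptgs2 (0.980), for Cd274 C1s1 (0.989), Plau (0.983) and Ccl4 (0.982), and for Icosl Ikbke (0.977), Susd6 (0.977) and Nrp2 (0.974). For Icam1 they were Gsr (0.976), Srxn1 (0.959) and Ninj1 (0.958). For Cd83 they were Sf3b3 (0.955), Psap (0.949) and Ppp1r8 (0.949), for Cd86 Mfap1b (0.9745), Stap1 (0.960) and Mrps22 (0.955), and for Cd80 Pigx (0.950), Mtif2 (0.938) and Magohb (0.938). Il6 and Ptgs2 encode an inflammatory cytokine and the inducible cyclooxygenase, and Gsr and Srxn1 encode enzymes of glutathione and peroxiredoxin reduction.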

How the data were processed

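RNA-seq of 12 BV2 libraries (6 groups of 2) was analysed. Per the file headers, the authors deposited for each library RSEM expected counts, TPM and transcript lengths per gene. They also deposited a normalized signal table over 18013 genes, used for 1 alternative; its normalization is not given in the sources used here. Per the submitters' processing notes, RSEM 1.3.3, STAR 2.7.11b, DESeq2 1.44.0, R 4.4.2, Trimmomatic 0.39 and FastQC 0.12.1 were used with the builds GRCm38 and mm10, with no roles or annotation stated. GENCODE M21 named 97.8% of the gene IDs.

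Expected counts, 7.03% of them not whole, were rounded. Genes passing filterByExpr (12705) were fitted in R 4.3.3 with edgeR 4.0.16: TMM scaling, 6 group means, robust quasi-likelihood F tests, 2-sided, Benjamini-Hochberg adjustment over all tested genes within each of 12 comparisons. The spread was shared over all groups, with 6 residual degrees of freedom and a common biological coefficient of variation of 9.45%; the median half-width of a 95% interval was 0.29 log2 units. Replicates differed beyond counting noise and none was a duplicate. The chi-square per degree of freedom between the 2 libraries was 35.0 for untreated cells and 6.08 to 15.7 in the other groups. A fit to the compared groups only called 1023 genes rather than 1501 for LPS over untreated cells. For 30 µM 6-shogaol over untreated cells it called 2092 rather than 3229. The floor of 3 counts covers counting error only.

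The 8 members and all lists were chosen with earlier results of these data known. All members are described; of each list the called genes with the largest absolute log2 fold change are named, at most 4 per list and comparison; receptors of a member, March1, Cd9, the scarce class II genes and genes followed to another comparison or dose are named beyond that rule. Alternatives were RLE scaling, library totals, no filter, DESeq2 1.42.0, limma-voom (limma 3.58.1), only the compared groups, a replicate block, mean fragment length as a covariate, the authors' table (log2 of value + 1, limma-trend) and each library left out. Promoters came from RefSeq; protein sequences were not used here. Plots used matplotlib 3.10.9.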

Additional observations from a re-analysis of the deposited data

Results flagged for a closer look

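The step from 10 to 30 µM differed between the 2 compounds for Cd40 and Cd274, by a test of the difference of the steps in the edgeR fit. For Cd40 the difference was -0.81 log2 units (95% interval -1.18 to -0.44, adjusted p = 0.0116): the libraries had 26.4 and 25.5 CPM at 10 µM and 14.6 and 12.8 CPM at 30 µM of 6-shogaol, and 42.2 and 40.4 CPM at 10 µM and 36.4 and 40.0 CPM at 30 µM of 6-gingerol. For Cd274 it was -0.62 log2 units (95% interval -0.97 to -0.28, adjusted p = 0.0287): 116.0 and 125 CPM at 10 µM and 75.7 and 81.9 CPM at 30 µM of 6-shogaol, and 127 and 153 CPM at 10 µM and 135 and 149 CPM at 30 µM of 6-gingerol. The Cd40 call held in 18 of 21 alternatives; it was lost without 10 µM 6-shogaol replicate 1 (adjusted p = 0.0516), without 30 µM 6-shogaol replicate 2 (0.0677) and in the authors' table (0.0698). The Cd274 call held in 14 of 21; it was lost without any 1 of 7 of the 8 compared libraries (adjusted p 0.0517 to 0.131).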

How the results depend on the processing

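Of 567 called values of single members over the 21 alternatives, 48 lost the call, 38 of them on leaving out a library, and none changed sign; 11 further values gained a call. The calls of Cd40, Cd83, Cd274, Icam1 and Icosl with LPS, and of Cd40, Cd83 and Cd274 with 30 µM 6-shogaol over LPS, held in 21 of 21. For 10 µM 6-shogaol over LPS the number of members called was 1, with 3 in a fit to the compared groups only, 0 with fragment length as a covariate (Cd40 adjusted p = 0.142) and 0 in the authors' table (0.117). For 6-shogaol over 6-gingerol at 10 µM it was 1, with 0 in the authors' table, and for the difference of dose steps 2, with 1 in the authors' table. With 1 library left out these counts ranged over 0 to 1, 0 to 1 and 0 to 2, and that for 30 µM 6-shogaol over 6-gingerol over 2 to 4. Cd86 at 30 µM 6-shogaol over LPS had an adjusted p of 0.0507 with the fragment-length covariate. The replicate numbers did not pair the samples (15 correlations of deviations between groups, -0.31 to 0.18); with a replicate block the members called remained 5 for LPS, 4 for 30 µM 6-shogaol and 1 for 10 µM 6-shogaol, with no count changed in the other comparisons.

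The counts of all genes behind the background shares moved by more than 1.5 times. For 10 µM 6-shogaol over LPS 81 genes were called, and 18 to 970 under the alternatives; for 6-shogaol over 6-gingerol at 10 µM 81, and 16 to 419; for LPS 1501, and 768 to 1772; for 30 µM 6-shogaol over LPS 3222, and 1827 to 4021; for 30 µM 6-shogaol over 6-gingerol 3171, and 1807 to 3728; for 6-shogaol at 30 over 10 µM 2463, and 960 to 3561; for the difference of steps 1038, and 300 to 1718; for 10 µM 6-shogaol over untreated cells 1113, and 499 to 2179; for 30 µM 6-shogaol over untreated cells 3229, and 1980 to 3527. For 6-gingerol at 10 µM, at 30 µM and between its doses, the main edgeR fit called 0, 0 and 1 genes. Without the count filter 28, 27 and 49 were called. With the filter, a fit to the compared groups only called 5 genes at 30 µM and 7 between the doses. DESeq2 called 2 genes at 30 µM. Scaling by library totals changed the share of higher calls to 53.3% with LPS from 64.8%, to 30.4% from 12.3% for the compounds at 10 µM, to 37.8% from 50.8% between 6-shogaol doses and to 25.7% from 52.2% for the difference of steps. It also shifted the median of all genes to 0.11 for the compounds at 10 µM and to -0.15 for the difference of steps, where Cd40 was then -0.56 and -0.96. With 2 libraries a group, the median half-width of an interval for 10 µM 6-gingerol over LPS was about 0.29 log2 units, without adjustment for the number of genes. Calls used the adjusted p, so differences larger than this could also go uncalled. For 10 µM 6-shogaol over LPS in edgeR, Cd86 at -0.37 (adjusted p = 0.34) and Cd80 at -0.53 (adjusted p = 0.461) were not called, and Cd40 at -0.63 was. The causes of the changes between alternatives were not tested.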
